A study of Mus musculus with 30 samples.

Results

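The G protein alpha subunit genes Gnas, Gnai1, Gnai2, Gnai3, Gnao1, Gnaz, Gnaq, Gna11, Gna12 and Gna13 were examined in the hippocampus of socially isolated and group-housed mice. They are 10 of the 17477 genes in the deposited table and were taken by symbol through their Ensembl identifiers. The family was chosen by measured values, because Gna13 counts were lower in isolation in these same mice, so the Gna13 difference between housing conditions is given as a description without a test. RNA-seq was performed on 30 adult C57 BL/6J mice, each giving 1 library. Social isolation (SI) meant single housing from weaning until the animals were killed, and group-housed (GH) controls shared a cage with other mice. There were 8 SI and 7 GH females, numbered between 41 and 79, and 7 SI and 8 GH males, numbered between 1 and 39. No transgene, deletion or drug was used, and the labels do not say which GH mice shared a cage. Bulk hippocampus holds many cell types, so fewer cells of a type and less RNA per cell cannot be told apart in any value below.

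Heterotrimeric G proteins carry signals from receptors in the plasma membrane to enzymes and channels inside the cell. An activated receptor makes the alpha subunit release GDP and bind GTP, after which alpha and the beta-gamma pair separate and each acts on its own targets. The alpha subunits fall into classes by their targets. Gnas encodes Gs, which stimulates adenylyl cyclase. Gnai1, Gnai2, Gnai3, Gnao1 and Gnaz encode the Gi/o class, which inhibits adenylyl cyclase and releases beta-gamma to act on ion channels, and Go is a major G protein of the brain. Gnaq and Gna11 encode the Gq/11 class, which activates phospholipase C beta. Gna12 and Gna13 encode the G12/13 class, which activates RhoA through a group of guanine nucleotide exchange factors and so acts on the actin cytoskeleton.

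The tail of the alpha subunit contacts the receptor and sets which receptors a subunit follows, so the last 33 coding bases of each member are shown, stop codon included. The capitals mark the fourth codon from the end of the protein. Sequences and positions are those of GENCODE vM1 on NCBIM37, and all lie in coding exons.
Gnas, chr2:174171857-174171889, plus strand: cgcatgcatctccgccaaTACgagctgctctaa
Gnai1, chr5:17772837-17772869, minus strand: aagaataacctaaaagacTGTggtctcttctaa
Gnai2, chr9:107517966-107517998, minus strand: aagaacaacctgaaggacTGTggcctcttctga
Gnai3, chr3:107912340-107912372, minus strand: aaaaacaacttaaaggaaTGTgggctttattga
Gnao1, chr8:96490923-96490955, plus strand: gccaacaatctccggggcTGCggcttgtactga
Gnaz, chr10:74477925-74477957, plus strand: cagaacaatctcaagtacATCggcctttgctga
Gnaq, chr19:16457852-16457884, plus strand: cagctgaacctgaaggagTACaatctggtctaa
Gna11, chr10:80993540-80993572, minus strand: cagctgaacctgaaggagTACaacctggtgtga
Gna12, chr5:141236503-141236535, minus strand: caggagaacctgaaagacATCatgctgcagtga
Gna13, chr11:109257768-109257800, plus strand: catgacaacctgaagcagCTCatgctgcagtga

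Within the Gi/o class the marked codon split the members. Gnai1, Gnai2, Gnai3 and Gnao1 carried a cysteine codon (TGT or TGC) at the marked position, the cysteine that pertussis toxin modifies, whereas Gnaz, the Gi/o member known to resist the toxin, carried ATC. Gnaq, Gna11 and Gnas carried TAC there, so this codon does not separate Gq/11 from Gs. Gna12 carried ATC, as Gnaz did, and Gna13 CTC, although Gna12 and Gna13 ended in the same 12 bases, atgctgcagtga. Over the whole coding sequence Gnaq and Gna11 were the closest pair, 80.5% identical with 16 shared stretches of 31 bases. Gnai1 was 78.7% identical to Gnai2 with 2 such stretches and 78.2% identical to Gnai3 with 0. Gnai2 shared 5 stretches with Gnaz and 1 with Gnao1. Gna12 and Gna13, at 69.4%, also shared 0. These stretches can overlap one another, and only coding sequences were compared. The reads were paired and longer than 31 bases, and whether any were placed on the wrong member was not tested. Gna13 (ENSMUSG00000020611, chr11:109224145-109262683) has 2 annotated coding ends, and Gnas (ENSMUSG00000027523, chr2:174109821-174172245), an imprinted locus with several first exons, has 5, and the gene counts do not separate them. An antisense gene overlaps Gnas, and whether the quantification used strand is not given in the sources used here.

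Total counts per library ranged from 18809307 to 100844898, with medians of 39728004 in GH females, 43484444 in SI females, 49542256 in GH males and 25609585 in SI males. Member counts ranged from 467 for Gnai3 to 174842 for Gnas in a single library. The 8 markers of hippocampal neurons were present in every library, as the tissue label says. SI males 25, 33 and 39 stood apart, with scores of 103, 88.9 and 63.4 on the leading principal component of male log2 CPM, where the other 12 males scored -37.6 to 0.748. Long transcripts were underrepresented in these 3 libraries, with slopes of -0.528, -0.507 and -0.417 in log2 CPM (the count scaled to the TMM-normalized library size) per doubling of transcript length, against -0.181 to 0.129 in the other 27 mice. Their summed oligodendrocyte markers were also the highest of the males, at 7887, 6124 and 5000 CPM, against 2852 to 4043 CPM in the other males. Male values of the members are therefore given with and without them.

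Per length, the hippocampus held more Gnas transcript than any other member. Levels between genes were compared as CPM per kilobase of 1 annotated transcript. Gnas stood at 966 ± 67.6 CPM per kilobase (SD, n = 30), or 60.7% of the family's sum, followed by Gnao1 at 255 ± 21.4 and Gnai2 at 124 ± 9.41. These 3 did not overlap with each other or with any other member over the 30 mice. Gna11, Gnai1, Gna12 and Gnaq followed at 56.0 ± 4.42, 53.8 ± 5.46, 47.7 ± 5.15 and 46.1 ± 10.8 CPM per kilobase, and each overlapped with the next in this order. Gna11 exceeded Gnai1 in 17 of 30 mice, Gnai1 exceeded Gna12 in 26, and Gna12 exceeded Gnaq in 22. Gnaz, a Gi/o member with slow GTP hydrolysis, stood at 22.7 ± 2.22 CPM per kilobase and below Gnaq in all 30 mice. Gna13 at 11.4 ± 2.17 and Gnai3 at 9.26 ± 1.18 CPM per kilobase were the lowest, and their ranges overlapped, with Gna13 above Gnai3 in 28 of 30 mice. With the longest annotated transcript of each gene the order was the same, but Gnas stood at 420 CPM per kilobase, 41.7% of the sum, against 217 for Gnao1, so the size of its lead depends on the transcript chosen. The 3 highest levels therefore belonged to Gs and to 2 members of Gi/o.

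**Figure D1:**
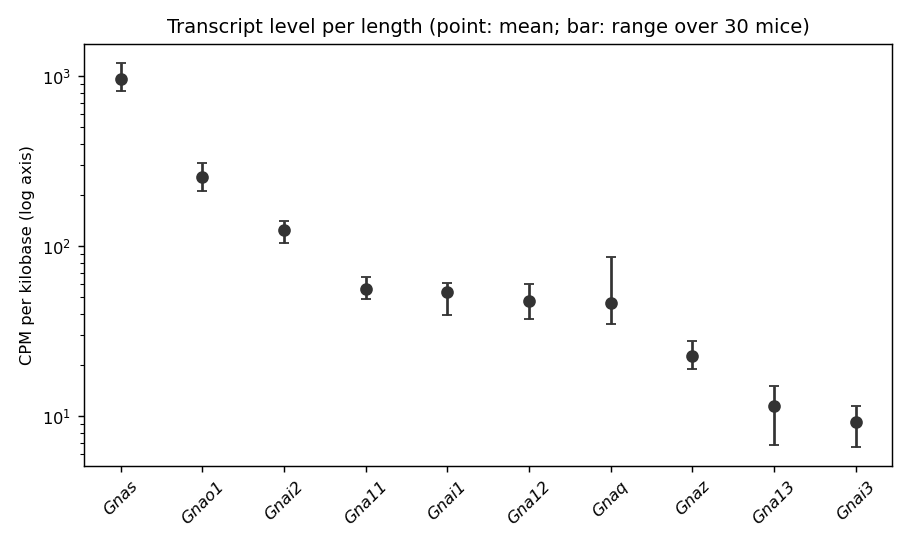
Level of each member in CPM per kilobase of transcript on a log axis, ordered by the mean; points are means and bars the range over the 30 mice. Gnas, Gnao1 and Gnai2 stand clear of the others, whereas Gna11, Gnai1, Gna12 and Gnaq overlap with their neighbours.

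The members differed in how much they varied between mice. Gnaq had the largest coefficient of variation of its level, 23.5% over 30 mice, and Gna13 the next, 19%, whereas Gnas had the smallest, 7%. Over the GH mice alone these values were 10.2% for Gnaq, 11.5% for Gna13 and 5.21% for Gnas. Summed by class, G12/13 stood at 65.8 ± 4.74 CPM per kilobase in GH females (SD, n = 7), 58.2 ± 4.90 in SI females (n = 8), 60.3 ± 2.56 in GH males (n = 8) and 51.97 ± 7.34 in SI males (n = 7). Gq/11 stood at 98.5 ± 3.72, 93.6 ± 4.13, 100.1 ± 3.70 and 117.5 ± 20.5 in the same order. The SI males had the lowest mean G12/13 sum and the highest mean Gq/11 sum, with the widest spread in both. Without SI males 25, 33 and 39, the other 4 had a G12/13 sum of 56.95 ± 5.45 and a Gq/11 sum of 104.1 ± 7.34. These were nearer to the other groups but still the lowest and the highest mean.

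**Figure D2:**
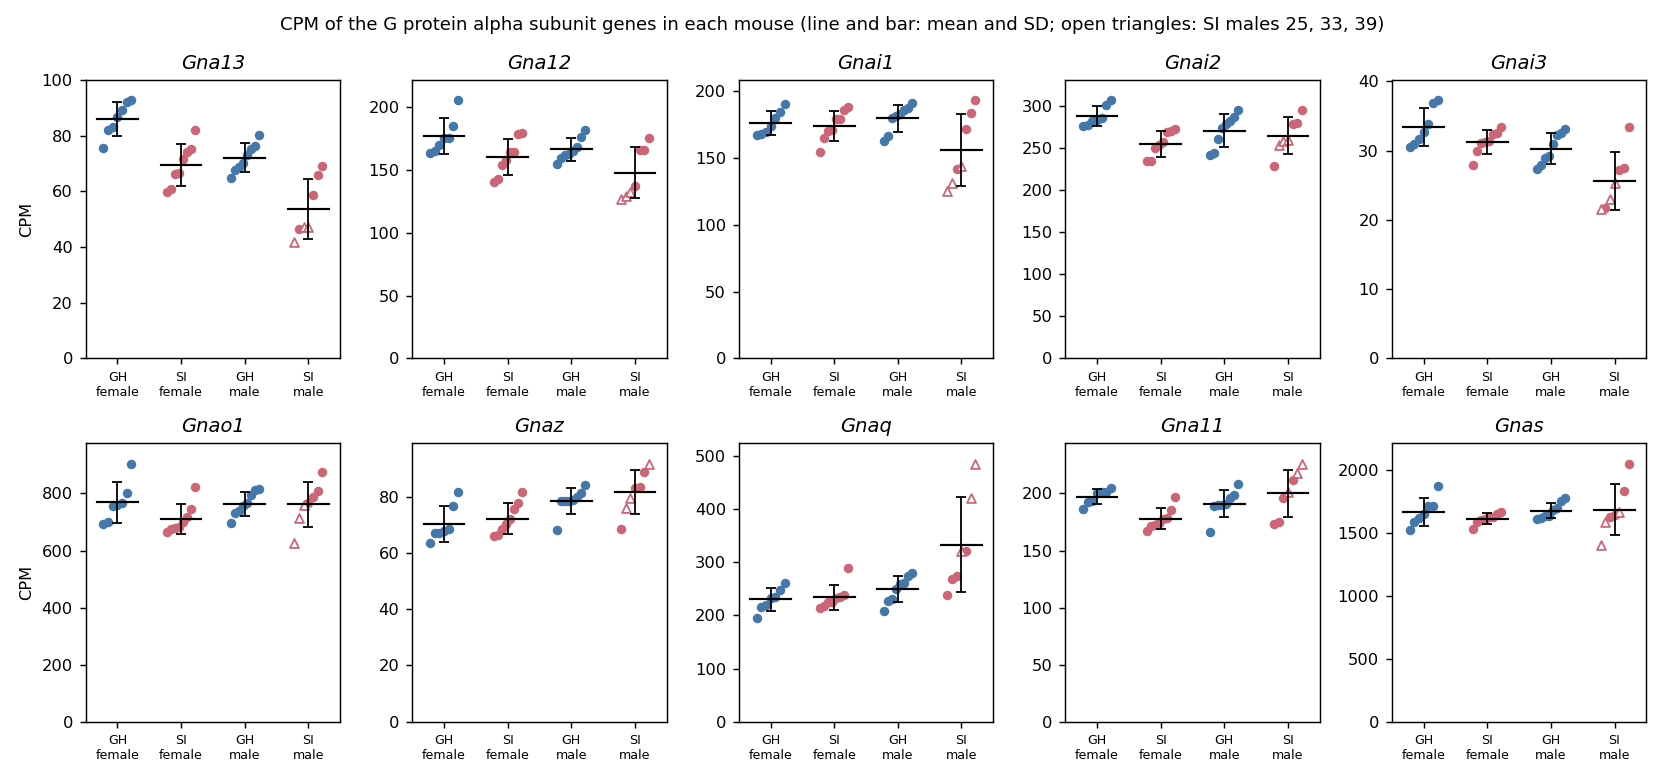
CPM of each member in every mouse by sex and housing; the line and bar are the group mean and SD, and open triangles are SI males 25, 33 and 39. Gna13 points of SI females sit mostly below those of GH females, all 8 Gnai2 points of SI females sit below the 7 of GH females, and Gnaq is spread most widely in SI males.

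In females, isolation was accompanied by lower Gna13 and lower Gnai2, and the other 8 members gave no DEG. Of the 9 members tested, 1 was a DEG (Gnai2, lower in SI) in edgeR's quasi-likelihood test, with p adjusted by Benjamini-Hochberg over all genes tested, against 3.89% of all 16026 genes. An unadjusted p under 0.05 was found for 4 of the 9, against 20.2% of all genes. The fitted difference was negative for 7 and positive for 2, with a median Log2FC of -0.09 against 0.01 over all genes tested. These signs were the same under each of the 7 alternatives other than leaving out a mouse. Each Log2FC comes from a model that also holds 3 surrogate variables (estimated sources of unwanted variation), so it need not equal the ratio of mean CPM. Because the family was taken up for the contrast of SI with GH in both sexes, neither the female nor the male values support its choice.

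Gna13, which links receptors to RhoA, had 75.5 CPM in the lowest, 86.8 in the median and 92.6 in the highest GH female (n = 7). In SI females the values were 59.9, 69.0 and 82.0 CPM (n = 8). Of the 8 SI females, 7 lay below every GH female, and SI female 52 alone, the highest, lay within the GH range. The Log2FC was -0.28 (SE 0.0416), or -17.4%, and it stayed between -0.34 and -0.24 with each female left out in turn. Of all genes tested, 2.84% had a lower Log2FC, a rank that is no test because Gna13 was chosen for this difference. Gna12, the other member of its class, had 164, 175 and 205 CPM in GH females and 140, 161 and 179 CPM in SI females. The ranges of Gna12 overlapped, with 4 of 8 SI females below the GH range, and its Log2FC of -0.14 (SE 0.0597) did not pass the edgeR test (adjusted p = 0.187).

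Gnai2, an inhibitory subunit and the third most abundant member per length, had 277, 284 and 307 CPM (lowest, median and highest) in GH females. SI females had 234, 255 and 273 CPM. All 8 SI females lay below all 7 GH females, as was so for 30 of 16026 genes (0.187%) in this direction. The Log2FC was -0.17 (SE 0.0342), or -11.3% (edgeR quasi-likelihood test, adjusted p = 0.0127). The size was nearly the same under every alternative, between -0.18 and -0.16. However, the adjusted p rose to 0.126 without surrogate variables and to 0.19 with the position digit of the sample titles in their place, settings in which edgeR called 0 of all 16026 genes (1875 and 1915 had an unadjusted p under 0.05). It was 0.0595 with all 30 mice in 1 fit, which called 437 genes, and 0.0503 without SI female 68, where 88 genes were called.

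The other Gi/o members moved less. Gnai3 had 30.5, 32.6 and 37.2 CPM in GH and 27.9, 31.3 and 33.4 CPM in SI females, with overlapping ranges. Its Log2FC was -0.09 (SE 0.0388, edgeR adjusted p = 0.186), and it passed the edgeR test with length and GC trends taken off (-0.12) and without GH female 78 (-0.13). Gnao1, the neuronal Go subunit, had 695, 759 and 904 CPM in GH and 664, 690 and 824 CPM in SI females, again overlapping, with a Log2FC of -0.10 (SE 0.053, edgeR adjusted p = 0.306). Gnai1, close in sequence to Gnai2, had a Log2FC of -0.01 (95% interval -0.0952 to 0.0755), and Gnaz one of 0.04 (-0.0569 to 0.132). The 95% intervals of both include 0, and that of Gnai1 lies above the Gnai2 value of -0.17.

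In the Gq/11 class the paralogs differed in value. Gna11 had 186, 201 and 205 CPM in GH females and 167, 176 and 197 CPM in SI females, and 7 of 8 SI females lay below the GH range. Its Log2FC of -0.13 (SE 0.0359) was just outside the threshold of the edgeR test (adjusted p = 0.0535). It was inside it with DESeq2 (adjusted p = 0.00601), with each library's length and GC trend taken off (0.0248) and with all 30 mice in 1 edgeR fit (0.047), as well as without GH female 46, 47 or 79 or SI female 45 or 52 (0.0152 to 0.0471, edgeR). Gnaq had 196, 233 and 262 CPM in GH and 213, 229 and 288 CPM in SI females, with a Log2FC of 0.02 (95% interval -0.0861 to 0.133). Gnas had 1519, 1650 and 1871 CPM in GH and 1530, 1619 and 1662 CPM in SI females. Every SI female lay within the GH range for Gnas, and the Log2FC was -0.05 (95% interval -0.115 to 0.00798).

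Marker sums of other cell types were compared by their ranges, which all overlapped between housing conditions in females. The summed markers of endothelial cells (6 genes) ranged from 155.2 to 182.9 CPM in GH and from 181.8 to 226.5 CPM in SI females. Their medians were 170.7 and 195.9 CPM, and SI female 63, at 181.8 CPM, was the only SI female within the GH range. The summed markers of astrocytes (6 genes) ranged from 2939 to 3692 CPM in GH and from 2244 to 3368 CPM in SI females. Those of oligodendrocytes ranged from 3248 to 5048 and from 3186 to 4387 CPM. Astrocyte medians were 3463 and 2880 CPM, and oligodendrocyte medians 4276 and 3668 CPM, in GH and SI females. Microglial markers ranged from 255.3 to 317.1 and from 225.7 to 317.1 CPM, and choroid plexus markers had medians of 137.6 and 180.5 CPM. None of these marker genes was at 0 in any mouse. Their part in the Gna13, Gnai2 and Gna11 values was not tested.

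In males, who also entered the choice of the family, Gna13 values lay lower in isolation, and no other member gave a DEG. By the same edgeR test 0 of the 9 other members and 0 of 15833 genes (0%) were DEGs. At an unadjusted p under 0.05 the counts were 0 of 9 members and 2060 of 15833 genes (13%), and DESeq2 called 0 of the 9 and 44 genes. The median Log2FC of the 9 was -0.02 against -0.00 over all genes tested.

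Gna13 had 64.7, 71.5 and 80.3 CPM in the lowest, median and highest GH male (n = 8) and 41.8, 47.1 and 69.2 CPM in SI males (n = 7). SI males 25, 38, 33, 39 and 7 lay below every GH male, and SI males 27 and 8 lay within their range. The Log2FC was -0.33 (SE 0.0861), or -20.2%. Without SI males 25, 33 and 39 it was -0.26 (SE 0.092), with 2 of the 4 remaining SI males below the GH range. It was -0.19 without SI male 38, -0.23 with length and GC trends taken off and -0.42 without surrogate variables. Gna13 stayed lower in SI males in every fit, although its size changed by more than 1.5 times. Its transcript, of 6160 bases, is the longest of the family, and how much of the male value rests on the loss of long transcripts in the 3 libraries was not tested beyond these fits.

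Gnaq, whose transcript of 5644 bases is the next longest of the family after that of Gna13, had the largest positive male difference. GH males had 208.8, 254.9 and 279.5 CPM, and SI males 238.4, 320.6 and 485.0 CPM. The highest values, 485.0 and 420.2 CPM, were those of SI males 25 and 33, and 4 of 7 SI males lay above the GH range. The Log2FC was 0.19 (SE 0.106, edgeR adjusted p = 0.454). Without SI males 25, 33 and 39 it was 0.18 (SE 0.0883, edgeR adjusted p = 0.742), and the highest of the 4 remaining was 320.8 CPM.

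Gnai3 had 27.4, 30.1 and 33.1 CPM in GH males and 21.5, 25.3 and 33.4 CPM in SI males. Although 5 of 7 SI males lay below the GH range, SI male 27 had the highest value of all males. Its Log2FC was -0.16 (SE 0.0901, edgeR adjusted p = 0.437), or -0.09 without the 3 libraries. Gnai1 had 163, 182 and 191 CPM in GH and 126, 144 and 193 CPM in SI males, with a Log2FC of -0.10 (SE 0.0589, edgeR adjusted p = 0.465), or -0.04 without the 3. Both differences were thus smaller without those libraries. They were smaller still without SI male 38 alone, which is not among the 3, at -0.03 for Gnai3 and -0.01 for Gnai1.

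Gnai2, the member called in females, had 242, 277 and 296 CPM in GH males and 228, 260 and 295 CPM in SI males. These ranges overlapped almost wholly, and the Log2FC was -0.02 (95% interval -0.161 to 0.116). Without the 3 libraries it was -0.05 (SE 0.0566). Gna12 had a Log2FC of -0.09, Gna11 of -0.04, Gnao1 of 0.05, Gnaz of 0.04 and Gnas of 0.08, with adjusted p from 0.558 to 0.845 (edgeR). Without the 3 libraries these values were -0.09, -0.09, 0.10, 0.01 and 0.05, with adjusted p from 0.742 to 0.966 (edgeR). For Gnai2, Gna11, Gnao1, Gnaz and Gnas the sign changed under at least 1 alternative or with 1 mouse left out. Male marker sums followed the 3 libraries, with oligodendrocyte markers from 2854 to 7887 CPM in SI and from 2852 to 3869 CPM in GH males. Microglial markers ranged from 228.4 to 499.6 CPM in SI and from 238.3 to 302.3 CPM in GH males, and endothelial markers from 181.8 to 316.8 and from 170.6 to 231.7 CPM. Their part in the male values was not tested, apart from choroid plexus markers, whose sum as a covariate gave a Gna13 Log2FC of -0.34. The number of male DEGs rested on a single library, since leaving out SI male 27 gave 2414 DEGs, among them Gnai3, at a Log2FC of -0.29.

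**Figure D3:**
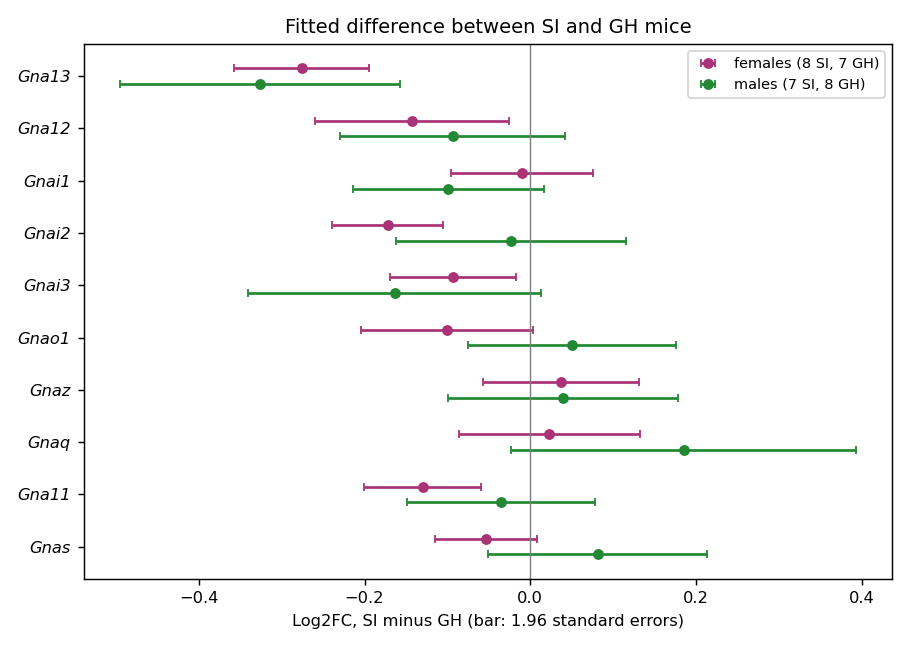
Fitted Log2FC (SI minus GH) of each member in females (8 SI, 7 GH) and males (7 SI, 8 GH); points are estimates and bars normal 95% intervals. Gna13 is lowest in both sexes, at -0.28 and -0.33, Gnai2 is low in females and near 0 in males, and the male bars are wider. Because Gna13 was chosen for its lower counts in isolation, its place and bars are a description and not a test.

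The difference between the sexes was tested directly, since an effect called in 1 sex and not in the other does not show that they differ. In a fit of all 30 mice with an interaction of sex and housing, 0 of the 9 members passed, against 1 of 16391 genes (0.00610%), and DESeq2 also called 0 of the 9. At an unadjusted p under 0.05 the counts were 0 of 9 members and 1153 genes (7.03%). For Gnai2 the female effect minus the male effect was -0.10 on the log2 scale (SE 0.078, edgeR adjusted p = 0.82, 95% interval -0.252 to 0.0532). For Gnao1 it was -0.16 (SE 0.0807, edgeR adjusted p = 0.722), the smallest unadjusted p among the 9 (edgeR, 0.0583). For Gnaq it was -0.23 (SE 0.149, edgeR adjusted p = 0.768). The Gna13 effects differed by -0.04 (SE 0.0788), a description only, and the sign of this value changed without surrogate variables, to 0.11.

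GH females and GH males were then compared. The choice of the family used the Gna13 values of these same GH mice, so Gna13 is again described without a test. Of the other 9 members 0 were DEGs by edgeR or by DESeq2, against 187 (1.17%) and 586 of 15981 genes, and 1 (Gnai2) had an unadjusted p under 0.05, against 17.4% of all genes. Gna13 had 85.9 ± 6.13 CPM (SD, n = 7) in GH females and 72.0 ± 5.19 CPM (n = 8) in GH males, and 6 of 7 GH females lay above every GH male. Its female minus male Log2FC was 0.16 (SE 0.0383). With each mouse left out this value ranged from 0.14 (without GH female 54) to 0.25 (without GH male 24). Without GH male 15 or 24, Gnaq and Gnaz, which had Log2FCs of -0.07 and -0.08 over all GH mice, passed the edgeR test, both lower in females, in fits that called 1666 and 2160 genes. Gnai2 had a Log2FC of 0.10 (SE 0.0456, edgeR adjusted p = 0.271). Sex and anything else that followed the animal numbers cannot be told apart. Summed astrocyte markers were 2939 to 3692 CPM in GH females and 2389 to 3280 CPM in GH males, and their part in the Gna13 value was not tested.

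Members were also compared by how they moved together across mice, on log2 CPM with group means taken off. These correlations describe 30 libraries that share depth, dissection and the length bias above, and no test was made. Gna13 followed Gnai3 most closely (Pearson's r = 0.727, and 0.686 over the 27 mice without SI males 25, 33 and 39). Gna12, of its own class, gave 0.504, or 0.244 over 27 mice. Gna13 and Gnaq went in opposite directions (-0.587, or -0.305 over 27 mice). Other pairs depended on the 3 libraries, since Gnao1 and Gnaq gave 0.224 over 30 and 0.773 over 27 mice, and Gnai3 and Gnas -0.277 and -0.755. Gnai1 and Gnai2, both with the cysteine codon, went in opposite directions in both (-0.383 and -0.713), and Gnai2 and Gna12 went together (0.641 and 0.677).

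**Figure D4:**
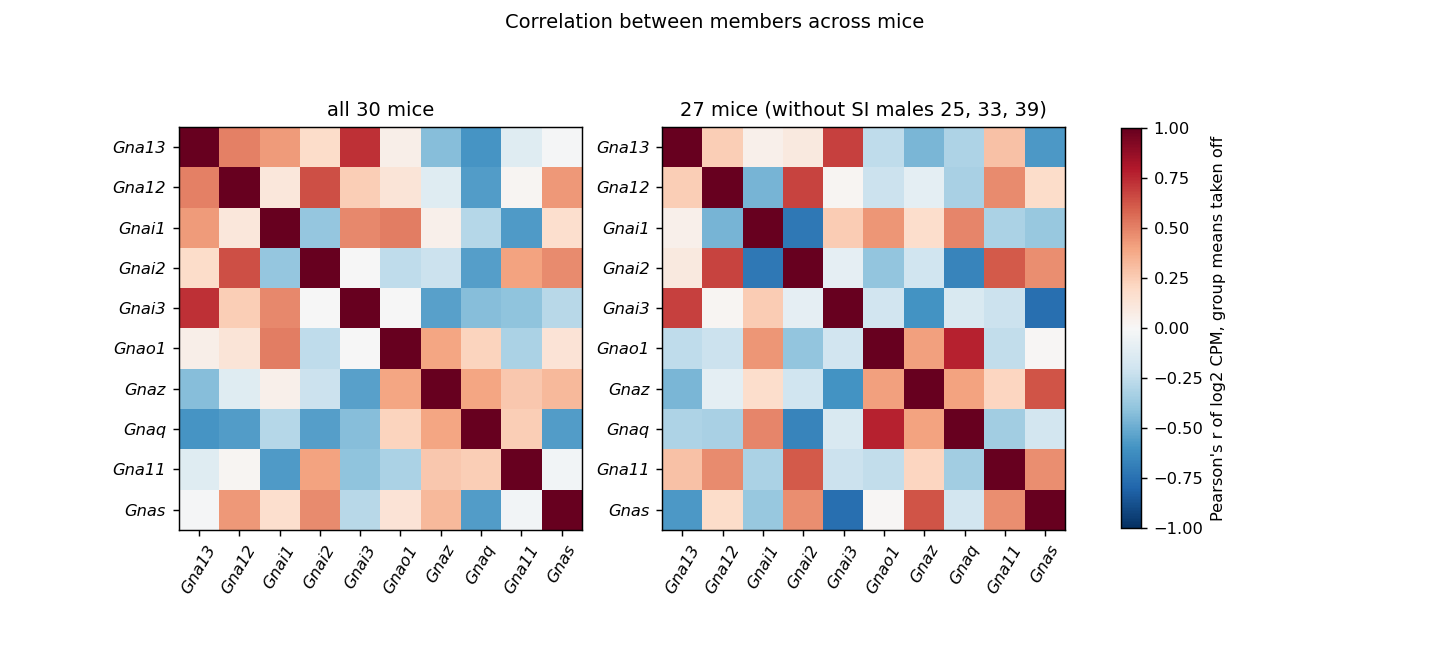
Pearson's r between members on log2 CPM with group means taken off, over all 30 mice and over 27 mice; red is positive and blue negative. The Gna13 and Gnai3 cell is dark red in both, at 0.727 and 0.686, whereas the Gnao1 and Gnaq cell turns from pale to dark red.

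The genes most like Gna13 over the 30 mice lay outside the family. Trak2, an adaptor of mitochondrial transport, came first (r = 0.955, and 0.953 over 27 mice). Mob1a, a co-activator in Hippo signaling, gave 0.921 (0.903), and Rnf144a, an E3 ubiquitin ligase, 0.92 (0.895). Mfap3l gave 0.919 (0.893) and Usp53, of the ubiquitin-specific protease family, 0.916 (0.87). Over 16391 genes the median r with Gna13 was 0.00588 and the 99th percentile 0.814. These 5 genes also have long transcripts, of 4014 to 6335 bases. Over the 15 females alone their r with Gna13 was 0.825 to 0.948.

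The wider pathway was described by lists of genes around the alpha subunits. Of 75 listed genes 72 passed the filter on low counts in females, and 7 were lower and 1 higher in SI by the edgeR test, against 2.93% and 0.961% of all genes. Their median Log2FC was -0.00, so the lists did not move one way. The calls depended on the model, with 0 of the listed genes (and 0 of all genes) called without surrogate variables or with the position digit and 4 (of 437 over all genes) with all 30 mice in 1 fit. With each female left out it ranged from 1 (of 88 over all genes, without SI female 68) to 13 (of 1373 without GH female 46 and of 1077 without GH female 78), so the count of listed genes went with that of all genes at both ends. It was 2 (of 273, 226 and 169 over all genes) without GH female 48, GH female 54 or SI female 63. It was 3 (of 288) without SI female 49 and 4 (of 290) without SI female 73. Without SI female 45 or GH female 71 it was 5 (of 458 and 446).

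Receptor kinases and arrestins, which switch receptors off, held the most calls, 3 of 7. Grk3, a kinase of activated receptors, was lower at 81.6 against 100.8 mean CPM (Log2FC -0.26, SE 0.0466, edgeR adjusted p = 0.00875). Arrb1, which encodes beta-arrestin 1, was lower at 261.6 against 319.6 mean CPM (Log2FC -0.24, SE 0.0446, edgeR adjusted p = 0.00971). Its paralog Arrb2 was higher at 42.7 against 37.6 mean CPM (Log2FC 0.16, SE 0.0429, edgeR adjusted p = 0.0413). The arrestin genes thus went in opposite directions. Arrb1 was called with each female left out in turn, and Grk3 in all but the fit without SI female 68 (edgeR adjusted p = 0.0579). Arrb2 and every gene called in the lists below lost the call without SI female 63 (edgeR adjusted p from 0.077 to 0.14).

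Of the partners of alpha, 2 of 11 gamma subunits passed the test, both lower, and 7 of 11 had a negative Log2FC, with a list median of -0.13. Gng7, a gamma subunit known for its part in adenylyl cyclase signaling in striatum, had a Log2FC of -0.26 (SE 0.058, edgeR adjusted p = 0.0229). Gng12 had one of -0.21 (SE 0.0468, edgeR adjusted p = 0.0231). None of the 4 beta subunits tested passed, Gnb5 having the smallest p (Log2FC 0.08, edgeR adjusted p = 0.217). Of 16 RGS genes, whose proteins speed GTP hydrolysis by alpha, 1 passed, Rgs20, which acts on Gi/o subunits and Gz, at a Log2FC of -0.25 (SE 0.0566, edgeR adjusted p = 0.0246). Of 8 chaperones and non-receptor regulators 0 passed, and Pcp2, with the smallest p, had under 1 mean CPM in all 4 groups (Log2FC -1.55, SE 0.545, edgeR adjusted p = 0.117).

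Among effectors, Adcy5 was the only 1 of 9 adenylyl cyclases to pass (Log2FC -0.27, SE 0.0643, edgeR adjusted p = 0.0287). Summed striatal markers were 107.8 to 152.9 CPM in GH and 113 to 174.8 CPM in SI females (medians 124.8 and 124.5 CPM), and their part in the Gng7 and Adcy5 values was not tested. Plcb3, a phospholipase C target of Gq, was the only 1 of 6 Gq effectors to pass (Log2FC -0.21, SE 0.0499, edgeR adjusted p = 0.0296). None of the 6 protein kinase A subunits passed, with Prkar2b closest (Log2FC 0.10, edgeR adjusted p = 0.252). None of the 5 effectors of G12 and G13 passed either, and Arhgef12, an exchange factor that Gna13 activates, had a Log2FC of -0.11 (SE 0.0363, edgeR adjusted p = 0.11).

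**Figure D5:**
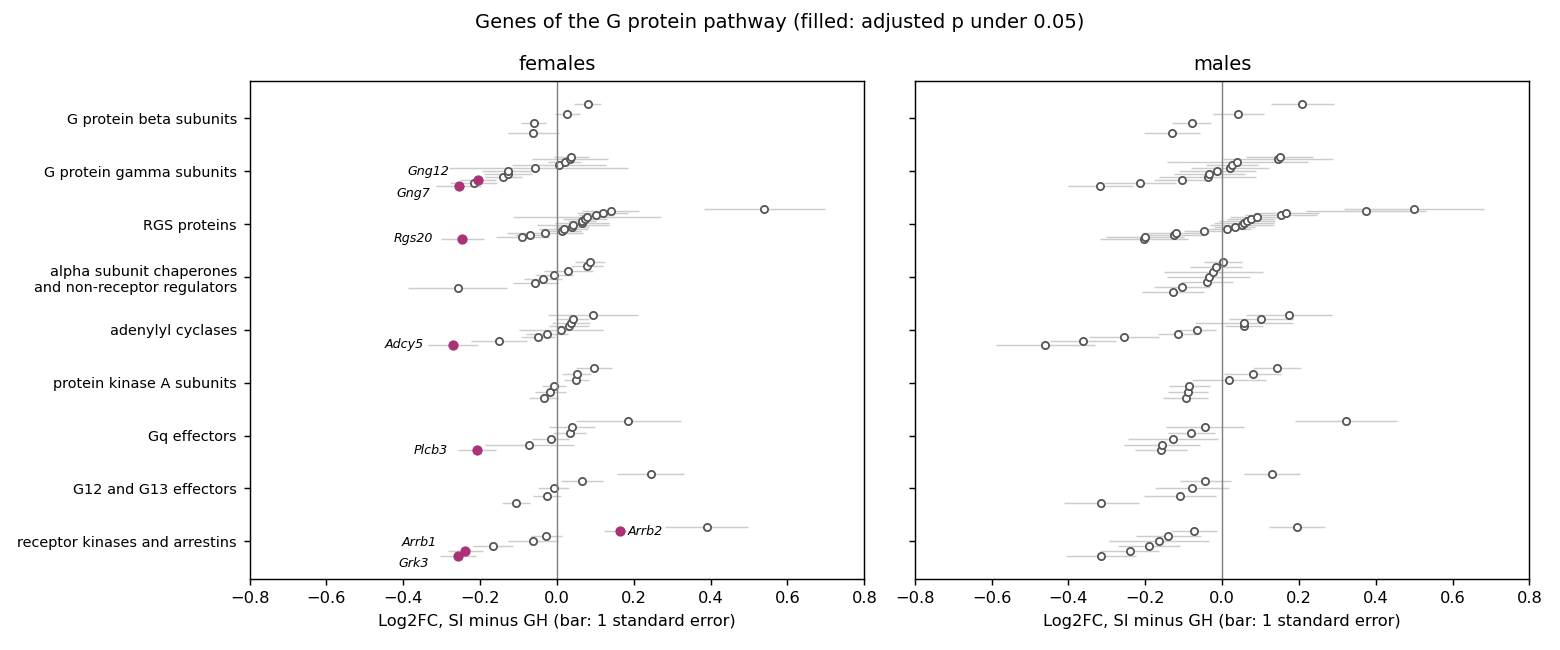
Log2FC (SI minus GH) of each pathway gene by list in females and males; points are genes, bars 1 standard error, and filled points passed an adjusted p of 0.05. The 8 filled points are all in females, and Pcp2 in females, at -1.55, lies outside the axis.

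In males 0 of the 71 listed genes tested were DEGs by edgeR, 17 had an unadjusted p under 0.05 (against 13% of all genes), and DESeq2 called 1 (Adcy9) of 44 over all genes. Leaving out SI male 27 gave 16, of 2414 over all genes. The values of the genes called in females were -0.31 for Grk3, -0.24 for Arrb1, 0.19 for Arrb2, -0.21 for Gng7, -0.32 for Gng12, -0.20 for Rgs20, -0.26 for Adcy5 and -0.16 for Plcb3, with edgeR adjusted p from 0.295 to 0.495. Each had the same sign as in females. Without SI males 25, 33 and 39 these values were -0.21, -0.18, 0.11, -0.14, -0.26, -0.20, -0.16 and -0.13 in the same order. In that fit edgeR called 0 of 73 listed genes and 0 of all 16241 genes. An unadjusted p under 0.05 was found there for 10 of the listed genes and 955 of all genes. Arhgef12 stood at -0.31 (SE 0.0973, edgeR adjusted p = 0.3), or -0.16 without SI males 25, 33 and 39. In the interaction fit 0 of 73 listed genes passed, and 7 had an unadjusted p under 0.05, against 7.03% of all genes.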

How the data were processed

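Hippocampal RNA-seq of 30 mice was analysed from 1 table of raw counts. Per the paper's methods and the submitters' processing notes, the authors ran Trimmomatic 0.39 for trimming and Salmon 1.8.0 for quantification, and the deposited values are unnormalized whole-number counts of each gene in each mouse. The notes also name DESeq2 1.24.0 and GRCm39, whereas lengths, positions and sequences here come from GENCODE vM1 on NCBIM37. Symbols were found for 16439 of 17477 identifiers (94.1%), and lengths for 15964 (91.3%). Of the columns, 0 lacked a sample. The table holds genes with at least 100 counts in all.

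The members, gene lists and tests were chosen with earlier results of these data known. Groups came from the labels. With R 4.3.3 and edgeR 4.0.16, genes with low counts were removed by filterByExpr (a count of at least 10, a total of at least 15), and the rest were normalized by TMM and tested by glmQLFit and glmQLFTest, with surrogate variables from svaseq (sva 3.50.0, 20 permutations, seed 1), 3 in females, 2 in males and 4 in the other fits. P-values were adjusted by Benjamini-Hochberg over all genes tested (threshold 0.05) and rest on the spread between mice, each counted as independent. GH mice shared cages that the labels do not give, so likeness between cage mates could not be modelled and p-values may be too small. CPM used TMM over the 30 mice, and log2 CPM a prior count of 2. Intervals of Log2FC are normal 95% intervals, which are somewhat narrower than the quasi-likelihood test implies. For Gnao1 in the interaction the interval (-0.318 to -0.00132) excluded 0 although the unadjusted edgeR p was 0.0583. Per-length levels used the transcript with the longest complete coding sequence of at most 1200 bases, and on ties the shortest. The steps were tested on simulated counts, drawn independently for each gene without hidden variation or the length bias of the real libraries. Recovery in the real data may therefore be lower than the counts given here. At a true Log2FC of 0.3 in size, 56 of 100 changed genes were called in females and 36 of 98 in males. At 0.6 the calls were 82 and 76 of 100. Unchanged genes called numbered 14 in females and 5 in males. A member that was not called can thus still differ by such a size.

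All 10 members were named. In each pathway list the genes called were named, or otherwise the gene with the smallest p in females, and then the 5 genes most like Gna13. Adcy9 was named after its value was seen. Grk2, Grk3, Ric8a and Drd1 were matched through older symbols. Alternatives were DESeq2 1.42.0, no surrogate variables, DESeq2 size factors, no filter, the position digit of the titles as a factor, taking off the length and GC trend of each library (lowess span 0.3), all 30 mice in 1 fit, males without SI 25, 33 and 39, and each mouse left out, with the number of surrogate variables kept. A choroid plexus covariate in males and the alternatives for the pathway lists were chosen after seeing the data. Position digit 3 lacked GH females and digit 4 lacked SI males, and the digit's meaning is not given in the labels.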

Additional observations from a re-analysis of the deposited data

Results flagged for a closer look

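Among the 40 combinations of member and group, 3 held a mouse far from the rest of its group by Dixon's test, where chance flags about 1 in 20. Gna11 in GH male 22 stood at 166 CPM, with the nearest GH male at 189, a gap of 0.544 of the group's range. Gnaq in SI female 45, the most deeply sequenced library, stood at 288 CPM, with the nearest SI female at 238, a gap of 0.665 of the range. Gnaz in GH male 24 stood at 68 CPM, with the nearest GH male at 78.3, a gap of 0.631 of the range. Without SI female 45 the female Log2FC of Gnaq was -0.02.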

How the results depend on the processing

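In females the number of members called, 1 with edgeR, was 2 with DESeq2 (Gna11 and Gnai2), 3 with length and GC trends taken off (Gna11, Gnai2 and Gnai3), and 0 without surrogate variables or with the position digit. Over all genes edgeR called 624, DESeq2 1262, the fit without trends 943, and the last settings 0, so every female DEG was lost there. It was 1 with all 30 mice in 1 fit, but Gna11 in place of Gnai2. With each mouse left out it ranged from 0 (without SI female 68) to 2 (without GH female 46, 47, 78 or 79 or SI female 45 or 52). In males it was 0 under every alternative and from 0 to 1 with each mouse left out, in the interaction 0 throughout. Between GH females and GH males Gna13 was left out of the count, since its GH values entered the choice of the family. The other 9 members gave 0 calls under every alternative. With each mouse left out they also gave 0, except that Gnaq and Gnaz were called without GH male 15 or 24. Pathway genes called in females, 8 with edgeR, numbered 12 with DESeq2, 9 with length and GC trends taken off, 4 with all 30 mice in 1 fit, and 0 without surrogate variables or with the position digit, and from 1 to 13 with each mouse left out. In males they numbered 1 with DESeq2 and from 0 to 16.

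Some small values changed sign. In males Gna11 was 0.07 without surrogate variables and 0.06 with the position digit, Gnao1 was -0.05 and Gnaz -0.01 with the digit, and with all 30 mice in 1 fit Gnaz was -0.01 and Gnas -0.02. In the interaction, without surrogate variables, Gna12 was 0.02, Gna13 0.11, Gnai3 0.14 and Gnaz -0.02, and with the digit Gna12 was 0.02, Gna13 0.05 and Gnai3 0.10. Between GH females and GH males, Gnai1 was -0.03 and Gnas -0.01 without surrogate variables, and Gnai1 -0.04 and Gnao1 -0.03 with the digit. With each mouse left out, signs changed in females for Gnai1 (-0.03 to 0.01) and Gnaq (-0.02 to 0.06), in males for Gna11 (-0.11 to 0.02), Gnai2 (-0.08 to 0.04), Gnas (0.00 to 0.11) and Gnaz (-0.06 to 0.10), in the interaction for Gna12 (-0.13 to 0.05), Gna13 (-0.15 to 0.10), Gnai3 (-0.08 to 0.13) and Gnaz (-0.06 to 0.10), and between GH females and GH males for Gnai1 (-0.03 to 0.04) and Gnas (-0.03 to 0.05). The causes were not tested. No scaling moved the median of all genes by over 0.1. No paired analysis was possible because animal numbers do not repeat between groups. The members had at least 467 counts in each library, and the shares of counting depth and of the spread between mice in their precision were not tested.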
